A study of Oryza sativa Indica Group with 8 samples.

Results

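Galactolipid remodelling was followed in rice roots through 3 genes of 17905 matched on the array, OsMGD2 (LOC4345212), OsMGD3 (LOC4331045) and OsSFR2 (LOC4351127). Every probe set matched to these genes was taken, whatever its value. This gave 5 probe sets of 57194 that were not array controls, namely 1 for OsMGD2, 1 for OsMGD3 and 3 for OsSFR2. The OsSFR2 probe sets are called OsSFR2-a and OsSFR2-s, which the probe table assigns to the same cDNA, and OsSFR2-b, assigned to another cDNA. The plots give their identifiers. All 5 were tested, and no filter on dim values removed any.

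Galactolipids are the main lipids of plastid membranes and contain no phosphorus. MGD enzymes transfer galactose from UDP-galactose to diacylglycerol and so make monogalactosyldiacylglycerol, the precursor of digalactosyldiacylglycerol, which can take the place of phospholipid in membranes outside the plastid when phosphate runs short. In Arabidopsis, MGD1 supplies the bulk of plastid galactolipid and the MGD2 and MGD3 enzymes of the outer plastid envelope are known for their response to phosphate starvation. SFR2 works on the product of these enzymes. It moves galactose from a galactolipid to another, which yields oligogalactolipids and diacylglycerol, and in Arabidopsis it is known for freezing tolerance. SFR2 belongs by sequence to glycoside hydrolase family 1, and the gene table lists OsSFR2 also as BGLU36.

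The plants were Oryza sativa Indica Group seedlings in hydroponic culture, and RNA came from their roots. The 4 groups, with 2 Affymetrix rice arrays each, were a control with phosphorus (P) and iron (Fe) supplied, P deficiency, Fe deficiency, and deficiency of both, called the combined deficiency below. A treatment of 7 days, a hydroponic culture of 10 days and an age of 5 days for the young seedlings are stated, but not how these times relate. Cultivar, nutrient concentrations and any pooling of plants are not stated. Nor is it stated whether paired arrays are separate cultures, so p-values measure the spread between arrays, which may be technical.

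Values are deposited intensities after quantile normalization, which gives every array the same distribution with a median of 57.7. Changes are differences of log2(intensity + 16), a scale that understates the change of dim probe sets. Tests are moderated limma tests over all 57194 probe sets with Benjamini-Hochberg adjustment, "rose" and "fell" are kept for an adjusted p under 0.05, and SE and 95% intervals come from the same fit. No detection calls came with the values, so a value below 57.7 is not shown to lie above background. In bulk roots, fewer cells of a type and less RNA per cell cannot be told apart.

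The single deficiencies could be read from known response genes. OsSPX5, an SPX domain protein of phosphate signalling, rose from 136 ± 22.2 on the control arrays to 4994 ± 238 without P (SD, n = 2, limma adjusted p = 0.00149). OsNAS2, a nicotianamine synthase of iron acquisition, rose from 3272 ± 342 to 13149 ± 88.1 without Fe (adjusted p = 0.0244), a call lost in all 8 fits that left out an array. OsNAS2 rose without P too, to 6019 ± 369 (adjusted p = 0.025), so it does not read Fe supply alone. Of the 6 iron acquisition genes measured, 3 rose without Fe. NRAMP1 (1.92, adjusted p = 0.0555), IRO2 (1.17, adjusted p = 0.167) and TOM1 (-0.05, adjusted p = 0.962) did not pass. In the combined deficiency 5 of 6 phosphate response genes and 2 of the 6 iron genes rose, where 2.07% of all probe sets rose. YSL15 rose by 1.98 in Fe deficiency (adjusted p = 0.0366) but differed by 0.41 in the combined deficiency (adjusted p = 0.274). Of 6 root markers 5 were measured, and none was at 0. Without P the silicon transporter genes Lsi1 (-0.67, adjusted p = 0.0444) and Lsi2 (-1.31, adjusted p = 0.0118) fell, OsCASP1 of the Casparian strip rose (1.77, adjusted p = 0.00687), and SHR1 and SCR1 differed by -0.29 and 0.13 (adjusted p = 0.449 and 0.887). The summed intensity of the list, most of it from Lsi1, was 34929 to 38046 on control arrays, 22833 to 23668 without P, 35177 to 35500 without Fe and 23573 to 25559 without both. Of 7 photosynthetic markers 3 were measured (rbcS, CAB2R and RCA), with sums of 49009 to 52504, 31372 to 32741, 42978 to 46167 and 33642 to 35773 in the same order. Most of each sum came from CAB2R, which did not pass without P (-0.36, adjusted p = 0.192). Without P, rbcS (-1.54, adjusted p = 0.00833) and RCA (-1.30, adjusted p = 0.0101) fell. All 5 markers of dividing cells were measured, with sums of 3622 to 4333, 8209 to 9634, 4122 to 4123 and 6550 to 6757.

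OsMGD2 rose from a dim signal to a bright one when P was withheld. Its intensities were 27.5 and 21.7 on the control arrays, 1776 and 1883 without P, 68.3 and 59.9 without Fe, and 1211 and 1379 without both. No groups overlapped. Between P deficiency and control alone, 50.7% of all probe sets did not overlap, and the share over all 4 groups was not computed. In order of level the groups ran from the control through Fe deficiency and the combined deficiency to P deficiency. Both arrays without Fe alone lay above both control arrays, a separation that 39.1% of all probe sets showed in one direction or the other.

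**Figure D1:**
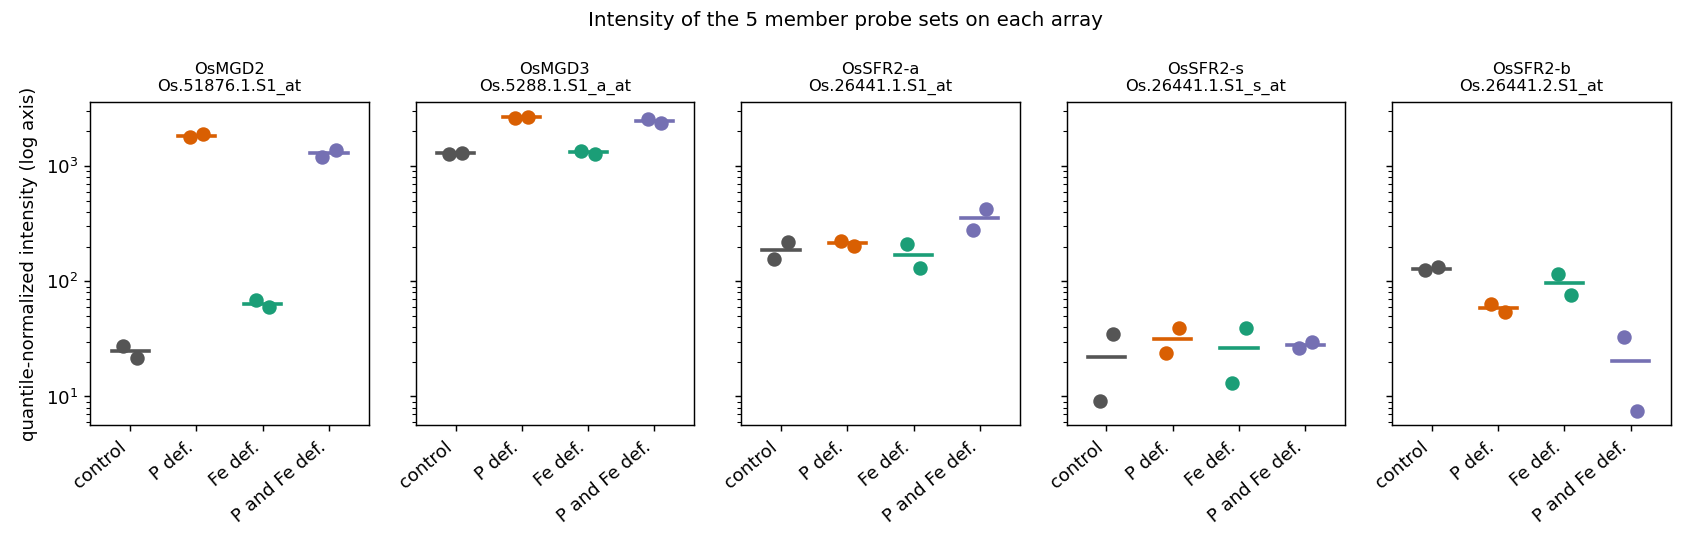
Quantile-normalized intensity (log axis) of the 5 probe sets in each group, with 1 point per array (n = 2) and a line at the group mean. OsMGD2 reaches 1211 to 1883 on the 4 arrays without P and 21.7 to 68.3 on the other 4, OsMGD3 goes from 1272 to 1352 with P to 2390 to 2696 without it, and OsSFR2-b is lowest without both.

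In P deficiency OsMGD2 rose by 5.51 on the log2 scale (SE 0.157, 95% interval 5.12 to 5.90, limma adjusted p = 0.00123), a 45.6-fold difference on that scale. Because the control values lie below the array median, the size depends on the added 16. The log2 change was 6.17 with 1 added and 4.42 with 64 added, and its rank among the rises of all 57194 probe sets was 9, 5 and 10 with 1, 16 and 64 added. The rise passed the test in each of the 8 fits that left out an array, with changes of 5.40 to 5.58 and adjusted p of 0.0134 to 0.0492. The fits without a P-deficiency array called only 6 and 3 probe sets, and OsMGD2 was among them both times. On the 4 arrays of these groups alone its limma adjusted p was 0.106.

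OsMGD3 also rose in P deficiency, from a level that was already high. Control arrays read 1272 and 1306, arrays without P 2632 and 2696, arrays without Fe 1352 and 1282, and arrays without both 2566 and 2390. The 4 arrays without P all lay above the 4 arrays with P. The share of all probe sets with that separation was not computed, and 50.7% did not overlap between P deficiency and control alone. The control and Fe-deficiency arrays overlapped, and so their order could not be told. The rise in P deficiency was 1.04 on the log2 scale (SE 0.131, interval 0.71 to 1.36, adjusted p = 0.0133), a 2.05-fold difference that ranked 3184th among all rises. It passed the test without either Fe-deficiency array or either array of the combined deficiency, and had adjusted p of up to 0.0686 without a control or P-deficiency array. On the arrays of these groups alone its adjusted p was 0.109. Centring arrays on their medians in place of quantile normalization gave 0.78 (adjusted p = 0.045), while the median of all probe sets moved to -0.147 from -0.018.

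Of the 5 probe sets, 2 rose in P deficiency and 0 fell, where 4.23% of all probe sets rose and 4.05% fell. Those 2 are the MGD probe sets, and their rise in these data was known when the genes were chosen. Summed markers of dividing cells were higher in the same arrays, as given above, and their part in the rise of the MGD genes was not tested.

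The third MGD gene of the table, OsMGD1 (LOC4347099), served as the nearest relative for comparison. It read 1601 and 1520 on control arrays, 1883 and 1739 without P, 1537 and 1539 without Fe, and 1950 and 1984 without both. The arrays without P were all above those with P, a separation whose share over all probe sets was not computed. Between P deficiency and control alone, 50.7% of all probe sets did not overlap. The difference from the control was 0.21 in P deficiency (interval -0.11 to 0.54, adjusted p = 0.415) and 0.33 in the combined deficiency (interval 0.01 to 0.66, adjusted p = 0.241), and median centring turned these to -0.06 and -0.01.

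The responses of the 3 MGD genes were set against each other as changes, on the 4 arrays without P against the 4 arrays with P. The mean change was 4.77 for OsMGD2, 0.97 for OsMGD3 and 0.28 for OsMGD1. OsMGD2 changed by 3.80 more than OsMGD3 and by 4.49 more than OsMGD1, and OsMGD3 by 0.69 more than OsMGD1. The differences that involve OsMGD2 depend on the added constant, since its arrays with P are dim. They were 4.26 and 4.96 with 1 added and 2.97 and 3.64 with 64 added. With 16 added, each difference had p = 0.0286 in a two-sided exact permutation test over the 70 regroupings of the arrays, the smallest p that 4 arrays against 4 allow, and adjusted p = 0.0286 over the 3 differences tested. All 8 arrays kept to this pattern in each pair, as that smallest p requires. The test permutes arrays across Fe supply. It was chosen after the data were seen, so its p adds no support to these differences.

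**Figure D2:**
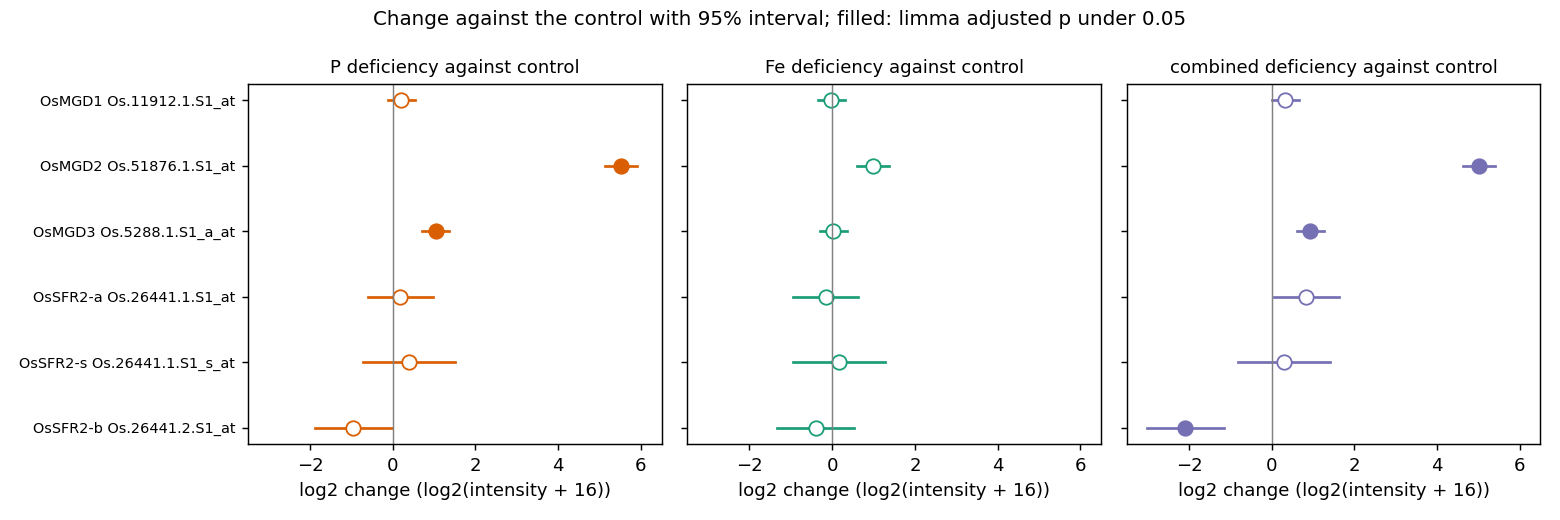
Change against the control on the log2(intensity + 16) scale for OsMGD1 and the 5 probe sets, with the point at the limma estimate, a line for the 95% interval, and filled points for adjusted p under 0.05. OsMGD2 stands at 5.51 and 5.01 without P, OsMGD3 at 1.04 and 0.93, and OsSFR2-b at -2.09 in the combined deficiency.

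Under Fe deficiency alone OsMGD2 read 64.1 ± 5.91, beside 24.6 ± 4.10 in the control (SD, n = 2), and the difference did not pass the test. The log2 difference was 0.98 (SE 0.157, interval 0.59 to 1.37) with limma adjusted p = 0.127, in a comparison where 0.124% of all probe sets changed. With 1 or 64 added before the log the difference was 1.35 or 0.53, and no fit without an array passed (adjusted p of 0.192 to 0.421). OsMGD3 differed by 0.03 (interval -0.29 to 0.35, adjusted p = 0.983), so a change beyond 0.35 lies outside its interval. None of the 5 probe sets passed the limma test in this comparison, and OsMGD2 was the only one with an unadjusted p under 0.05.

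In the combined deficiency OsMGD2 was at 1295 ± 119, a rise of 5.01 against the control (SE 0.157, interval 4.63 to 5.40, adjusted p = 0.00133). The change was 5.67 with 1 added and 3.94 with 64 added. It passed in each of the 8 fits without an array, at 4.90 to 5.12, and had adjusted p = 0.151 on the 4 arrays of these groups alone. OsMGD3 was at 2478 ± 124, a rise of 0.93 (SE 0.131, interval 0.61 to 1.26, adjusted p = 0.0284). That call was lost in all 8 fits without an array (adjusted p of 0.0599 to 0.12), with the replicate number as a block (adjusted p = 0.0728) and with each array centred on its median (0.60, adjusted p = 0.101). Here 2 of the 5 probe sets rose and 1, of OsSFR2, fell, where 2.07% of all probe sets rose and 1.78% fell.

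The MGD genes also rose between the groups without Fe when P was withheld. OsMGD2 rose from 64.1 ± 5.91 in Fe deficiency to 1295 ± 119 in the combined deficiency, by 4.03 on the log2 scale (SE 0.157, interval 3.64 to 4.42, adjusted p = 0.0031). It passed without either control or P-deficiency array, and had adjusted p of up to 0.0777 without an array of the groups compared and 0.132 on those 4 arrays alone. OsMGD3 rose from 1317 ± 49.9 to 2478 ± 124, by 0.90 (SE 0.131, adjusted p = 0.0404), a call that no fit without an array kept (adjusted p of 0.0712 to 0.201), nor did the block (adjusted p = 0.0978). These 2 of 5 stood where 1.36% of all probe sets rose and 0.904% fell.

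The difference on withholding Fe had opposite signs for OsMGD2 with and without P, though neither difference passed the test. With P supplied, both Fe-deficiency arrays were above both control arrays, a separation that 39.1% of all probe sets showed in one direction or the other. With P withheld, both arrays of the combined deficiency (1211 and 1379) were below both of P deficiency (1776 and 1883), a difference of -0.50 (SE 0.157, interval -0.89 to -0.11) with adjusted p = 0.383, where 41.8% of all probe sets were separated. The interaction was -1.48 (SE 0.223, interval -2.03 to -0.93) with adjusted p = 0.185, where 0.0402% of all probe sets were called. It passed the limma test with an intensity trend and robust prior (adjusted p = 0.0269) and in none of the 8 fits without an array (adjusted p of 0.238 to 0.427). Of the 6 phosphate response genes measured, some had the same signs and others did not. OsSPX5 differed by 1.22 between Fe deficiency and control and by -0.10 between the combined and P deficiency (interaction -1.31, adjusted p = 0.219). In the same order OsSPX3 differed by 1.74 and -0.77 (interaction -2.51, adjusted p = 0.214) and OsSPX1 by 0.13 and -0.11. OsSPX2 (0.28 and 0.01), PT2 (-0.37 and -0.17) and PT6 (-0.37 and -0.60) did not change sign. For OsMGD3 the combined deficiency differed from P deficiency by -0.10 (interval -0.43 to 0.22), and its interaction was -0.14 (interval -0.59 to 0.32, adjusted p = 0.878). None of the 5 probe sets passed the limma test between the combined and P deficiency, where 0.0315% of all did, and OsMGD2 and OsSFR2-b had unadjusted p under 0.05.

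The 3 probe sets of OsSFR2 did not give the same reading. OsSFR2-b passed the test in 1 comparison, the combined deficiency against the control, where 1.78% of all probe sets fell. OsSFR2-a and OsSFR2-s passed in none. The gene table lists 11 RefSeq transcripts for OsSFR2, against 2 for OsMGD2 and 1 for OsMGD3. It also places another protein-coding gene, LOC4351128, within the span of OsSFR2 in the japonica assembly, and no probe set is matched to that gene here. Which transcripts each probe set detects was not tested.

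OsSFR2-a read 158 and 219 on control arrays, 224 and 204 without P, 210.5 and 129 without Fe, and 278 and 428 without both. The first 3 groups overlapped, and both arrays of the combined deficiency lay above all others (49.4% of all probe sets had no overlap between that group and the control). The difference from the control in the combined deficiency was 0.84 (SE 0.316, interval 0.05 to 1.62) with adjusted p = 0.223, and that from Fe deficiency was 0.99 (interval 0.21 to 1.77) with adjusted p = 0.182. In P deficiency it was 0.19 (interval -0.60 to 0.97, adjusted p = 0.795) and in Fe deficiency -0.16 (interval -0.94 to 0.63, adjusted p = 0.95).

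OsSFR2-b read 125 and 133 on control arrays, 63.8 and 54.3 without P, 116 and 75.7 without Fe, and 33.1 and 7.55 without both. Each group lay below the control, and the combined deficiency lay below every other group and below the array median. Of all probe sets 50.7%, 39.1% and 49.4% had no overlap with the control in P, Fe and the combined deficiency. The fall against the control in the combined deficiency was 2.09 on the log2 scale (the change was -2.09, SE 0.376, interval -3.02 to -1.16, adjusted p = 0.0463). The difference was -0.95 in P deficiency (interval -1.88 to -0.03, adjusted p = 0.204), -0.40 in Fe deficiency (interval -1.33 to 0.53, adjusted p = 0.858), -1.14 between the combined and P deficiency (interval -2.07 to -0.21, adjusted p = 0.397) and -1.70 between the combined and Fe deficiency (interval -2.62 to -0.77, adjusted p = 0.0863).

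The call in the combined deficiency sat close to the threshold. It was lost in all 8 fits without an array, with changes of -2.62 to -1.58 and adjusted p of 0.087 to 0.149, and with the replicate number as a block (adjusted p = 0.0691). The deposited scaling without quantile normalization gave -1.86 (adjusted p = 0.0613). The size followed the added constant, at -2.93 with 1 added (adjusted p = 0.109) and -1.21 with 64 added (adjusted p = 0.0144).

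The last probe set, OsSFR2-s, was dim throughout. Control arrays read 9.07 and 35.0, arrays without P 23.7 and 39.4, arrays without Fe 13.1 and 39.6, and arrays without both 26.6 and 29.7. All 8 values were below the array median and all groups overlapped. Its differences from the control were 0.39, 0.17 and 0.30, with intervals that reached from -0.95 to 1.51 and adjusted p of 0.679 to 0.968. Its identifier ends in _s_at, which in Affymetrix naming marks probes that match several transcripts.

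Across the 4 arrays without P against the 4 with P, OsSFR2-a changed by 0.59 and OsSFR2-b by -1.33. This pair was picked for its divergence, so the difference of 1.91 is given without a test. Its SD was 1.24 over the arrays without P and 0.208 over those with P. Across the 8 arrays, which share their groups, the log2 values of these probe sets had a Pearson correlation of -0.775, while OsMGD2 and OsMGD3 had 0.989.

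**Figure D3:**
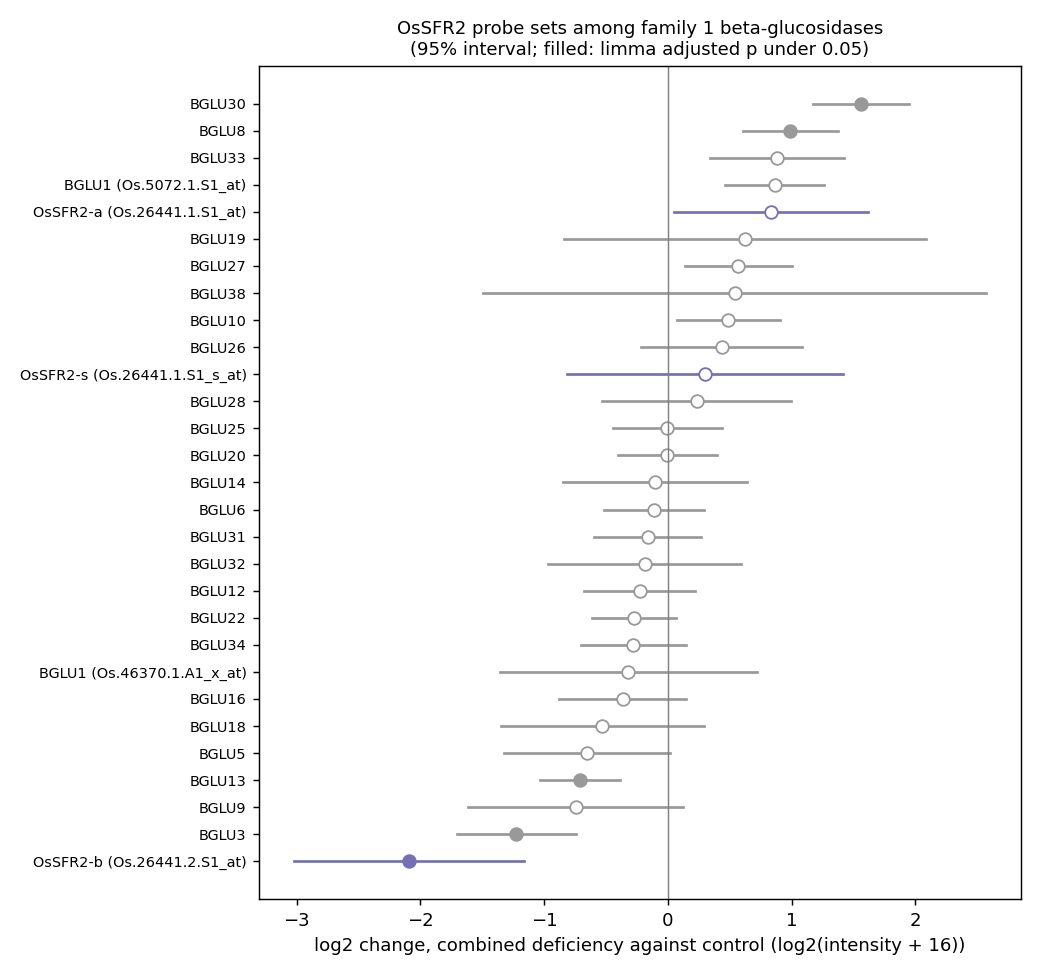
Change in the combined deficiency against the control (log2(intensity + 16)) for the 3 OsSFR2 probe sets (purple) and the leading probe set of each of 26 other family 1 beta-glucosidase genes (grey), with 95% intervals and filled points for limma adjusted p under 0.05. OsSFR2 probe sets lie at -2.09, 0.30 and 0.84, and the leading probe sets of the other genes between -1.22 and 1.56.

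The other family 1 beta-glucosidases, enzymes that cleave glucose from a range of plant glycosides, varied in both directions. Of 26 measured besides OsSFR2, 2 rose and 6 fell in P deficiency, where 4.23% of all probe sets rose and 4.05% fell. In the combined deficiency 2 rose and 2 fell, where 2.07% of all probe sets rose and 1.78% fell. The median changes of the 26 were -0.22 and -0.11, beside -0.02 for all probe sets in each. In Fe deficiency 0 passed in limma, where 0.124% of all probe sets did, and 2 had an unadjusted p under 0.05. The largest rises in the combined deficiency were BGLU30, from 592 ± 30.9 to 1785 ± 228 (1.56, adjusted p = 0.0168), BGLU8, from 834 ± 120 to 1663 ± 91.4 (0.99, adjusted p = 0.0357), and the dim BGLU33 (0.89, adjusted p = 0.0944). The lowest leading probe sets were those of BGLU3, from 225 ± 34.8 to 86.6 ± 5.86 (-1.22, adjusted p = 0.0366), BGLU9 (-0.75, adjusted p = 0.321) and BGLU13, from 3207 ± 9.07 to 1955 ± 126 (-0.71, adjusted p = 0.0487). A further probe set of BGLU13 went the other way, at 0.36. Over all 36 probe sets of these 26 genes the lowest was a further probe set of BGLU5 at -1.57 (adjusted p = 0.0362). Without an array, the calls of BGLU8, BGLU3 and BGLU13 were lost in all 8 fits and that of BGLU30 in 6 of them.

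The rest of the lipid pathway was only thinly named in the gene table. Of 15 listed genes of galactolipid and sulfolipid synthesis 4 were measured by name, the 3 MGD genes and OsSFR2. None of 37 listed genes of phospholipid breakdown, nor of 8 of lipid transport and storage lipid, could be matched by name. By leading probe set, 2 of the 4 rose in P deficiency and 0 fell, with a median change of 0.63 beside -0.02 for all probe sets, of which 4.23% rose and 4.05% fell. Those 2 are OsMGD2 and OsMGD3 again.

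UDP-glucose 4-epimerases interconvert UDP-glucose and UDP-galactose, the galactose donor of MGD enzymes. Of the 4 measured, only OsUGE-2 passed. Its mean was 1526 ± 77.8 on control arrays, 2880 ± 42.9 without P, 1271 ± 66.7 without Fe and 2584 ± 14.5 without both. Both groups without P lay above both groups with P, a separation whose share over all probe sets was not computed. OsUGE-2 rose by 0.91 in P deficiency (SE 0.132, adjusted p = 0.0183) and by 0.76 in the combined deficiency (adjusted p = 0.0443). Between Fe and the combined deficiency it rose by 1.02 (adjusted p = 0.0343). Of all probe sets 4.23%, 2.07% and 1.36% rose in these comparisons. The first call held in 2 of 8 fits without an array and the others in none, and all were lost by median centring (adjusted p = 0.074, 0.211 and 0.101). With the block the calls in the combined deficiency and against Fe deficiency had adjusted p of 0.0954 and 0.094.

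Phospholipid genes named in the table included the phospholipases D PLD1 and PLD2, the phospholipases A2 pla2-I, pla2-II and PLA2-III, the phosphatidylserine synthesis and decarboxylation genes PSS1, PSS2, PSD1 and PSD2, and the triacylglycerol synthesis gene OsDGAT1-1. Of these 10 genes, 0 passed the limma test in any deficiency relative to control, where 2, 1 and 3 had an unadjusted p under 0.05. Among all probe sets 4.23% rose and 4.05% fell without P, 0.124% passed without Fe, and 2.07% rose and 1.78% fell without both. The median change of the 10 genes was 0.22 without P, -0.01 without Fe and 0.23 without both.

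Genes whose pattern over the 8 arrays was most like that of each MGD gene were taken by Pearson correlation of log2 values among 2586 probe sets of named genes with a highest group mean of at least 100. The arrays fall into groups with and without P, so any gene that follows P supply correlates highly. For OsMGD2 the highest were SEC10 (0.999), a subunit of the exocyst, the chalcone synthase gene OsCHS1 (0.998), the aquaporin gene OsTIP2 (0.997), OsSPX5 (0.997) and the brassinosteroid synthesis gene OsCYP85A1 (0.993). The lowest were the Rubisco activase gene OsrcaA1 (-0.997), cap2 (-0.996) and the glycolate oxidase gene OsGLO5 (-0.996). All 5 of the highest had their group means in the same order as OsMGD2, which their selection by correlation favours. OsCHS1, for example, had 716 on control arrays, 1083 without Fe, 4499 without both and 5595 without P.

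For OsMGD3 the highest were OsUAM3 (0.998), a UDP-arabinopyranose mutase, ROMT-17 (0.998), the phosphate sensor gene OsSPX1 (0.995), the kinesin gene KIN14C (0.995) and the growth-regulating factor gene OsGRF6 (0.995). The lowest were MCCA (-0.997), the leading probe set of the beta-glucosidase gene BGLU13 (-0.994) and MSRA2-1 (-0.994). OsMGD2 and OsMGD3 correlated at 0.989 with each other, a value that 18 of the named genes reached with OsMGD2 and 21 with OsMGD3. Each of these MGD genes was among the named genes for the other, so the counts can include it. For OsSFR2-a the highest were CAT-A (0.920), a catalase, BASS1 (0.913), OsABCG32 (0.910), OsPht1;4 (0.878), a phosphate transporter, and STAR2 (0.878), and the lowest OsAMT2;3 (-0.932), OsHUB1 (-0.923) and GPA3 (-0.920). No named gene reached 0.989 with any OsSFR2 probe set.

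**Figure D4:**
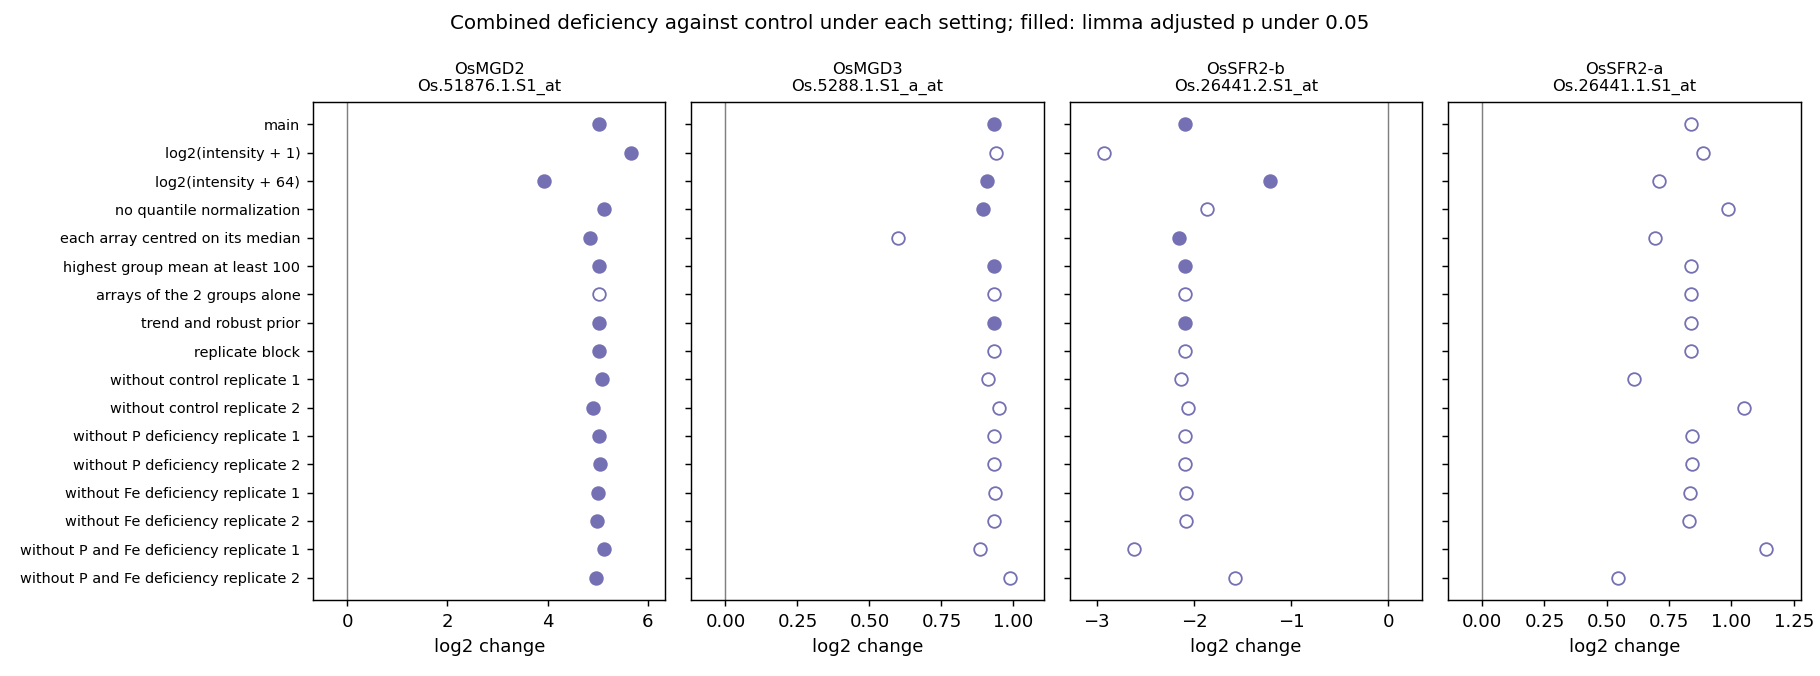
Change in the combined deficiency against the control under each setting (rows) for OsMGD2, OsMGD3 and OsSFR2-b and OsSFR2-a, on the log2 scale, with filled points for limma adjusted p under 0.05. OsMGD2 passes in every setting but the fit on 4 arrays, OsMGD3 and the falling OsSFR2 probe set lose the call in all 8 settings that leave out an array, and no value changes sign.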

How the data were processed

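The values are array intensities deposited by the authors, 1 per probe set and array, on a linear scale; per the submitters' processing notes they were made in Affymetrix Expression Console 1.1. The summarization of probe signals is not stated there. The 2% trimmed mean of each deposited array was 500.07. The 123 AFFX and 64 RPTR control probe sets of 57381 were left out. Deposited medians ranged from 48.0 to 68.9 per array, and log2 values of arrays of a group correlated at 0.965 to 0.974 across probe sets, beside 0.949 to 0.967 between groups. The number of arrays limits the precision.

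Intensities were quantile-normalized, converted to log2(intensity + 16) and modelled by group over the 8 arrays (limma 3.58.1, R 4.3.3; residual degrees of freedom 4, prior 1.74), with Benjamini-Hochberg adjustment over 57194 probe sets at 0.05. The code was tested on simulated data with changes placed only in probe sets that were bright in the control. A rise from a dim control was therefore not covered. Differences between changes were tested by exact permutation of arrays, chosen after seeing the data. Probe sets were named through the platform's probe table (22436 match 1 gene) and RefSeq gene table, which describes a japonica assembly, while the plants were Indica. List genes count by the probe set with the highest mean.

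The members and lists were chosen with earlier results of these data known. The phospholipid list by table name and the epimerase list were added once the gene table was seen. Every member probe set is named; of the beta-glucosidases the 3 largest rises and falls in the combined deficiency, and of like patterns the 5 highest and 3 lowest correlations, 1 per gene. Alternatives were the added constant, the scaling, a filter on dim probe sets, the arrays fitted, an intensity trend, a replicate block and leaving out each array. No sequence of a member, its promoter or its protein was used here.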

Additional observations from a re-analysis of the deposited data

Results flagged for a closer look

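The effect of withholding Fe on OsMGD2 is listed because every array differed one way with P and the other way without it. Of the phosphate response genes, OsSPX5, OsSPX3 and OsSPX1 had the same signs (interactions of -1.31, -2.51 and -0.24), while OsSPX2, PT2 and PT6 did not. With P supplied the Fe-deficiency arrays (68.3 and 59.9) were above the control arrays (27.5 and 21.7). Without P the arrays of the combined deficiency (1211 and 1379) were below those of P deficiency (1776 and 1883). Of all probe sets, 39.1% were separated in the first comparison and 41.8% in the second, in one direction or the other. The share separated in both with opposite signs was not computed. The difference itself, tested as the interaction, was -1.48 with limma adjusted p = 0.185, and adjusted p ranged from 0.0269 to 0.427 over its alternatives. Groups of 2 arrays allow no test for a single array that stands apart.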

How the results depend on the processing

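Of 229 results on the member probe sets under alternatives other than leaving out an array, 205 kept their direction and side of the threshold, 16 lost a call, 8 gained one and 0 reversed. Causes were not tested. On the arrays of the groups compared alone no call was kept (P deficiency: OsMGD2 5.51, OsMGD3 1.04; combined deficiency: 5.01, 0.93 and, for OsSFR2-b, -2.09; combined against Fe deficiency: 4.03 and 0.90). That setting called 0 probe sets in limma in each comparison, where 11190, 4922, 9539, 5311 and 10536 had an unadjusted p under 0.05 (P, Fe, combined, combined against P, combined against Fe), against 4736, 71, 2200, 18 and 1293 called with all arrays. It gives no interaction, for which 23 were called. With 1 added, OsMGD3 lost its calls in the combined deficiency (0.94, adjusted p = 0.0555) and against Fe deficiency (0.91, adjusted p = 0.0755), and OsSFR2-b its call (-2.93). Median centring did the same to OsMGD3 (0.60 and 0.55), and the deposited scaling to OsSFR2-b (-1.86). The replicate block removed OsMGD3 in the combined deficiency (0.93) and against Fe deficiency (0.90) and OsSFR2-b (-2.09), and changed no other member call. Replicate numbers were not treated as pairs, since deviations of same-numbered arrays correlated at only -0.017 to 0.017.

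The filter on dim probe sets gained calls that support nothing (OsMGD2 in Fe deficiency 0.98 and interaction -1.48; OsSFR2-b against Fe deficiency -1.70), since OsMGD2 passed it only through the groups without P and OsSFR2-b only through the control. Calls were also gained with trend and robust prior (the same, at 0.98, -1.48 and -1.70, and OsSFR2-a against Fe deficiency 0.99) and with 64 added (OsSFR2-b against Fe deficiency -0.93). OsMGD1 reversed under median centring (-0.064 and -0.01). Probe sets called in the comparisons above, then the interaction, were 3082, 32, 843, 10, 205 and 6 with 1 added, 7473, 213, 4506, 118, 3614 and 63 with 64 added, 9461, 350, 6804, 423, 5930 and 169 with the filter, and 9226, 476, 6775, 840, 5894 and 452 with trend and robust prior. With the block they were 2385, 14, 107, 0, 19 and 0 (5399 and 4815 at an unadjusted p under 0.05 in limma where 0). Median centring gave 46 in Fe deficiency and 783 against Fe deficiency. Calls that were higher made up 51% in P deficiency, 53.8% in the combined deficiency and 60% against Fe deficiency, beside 57.2%, 64.4% and 67.1% without quantile normalization and 32.8%, 29.7% and 27.6% with median centring. Of the 4 measured lipid genes, the groups' own arrays called 0 where 2 were called. The filter called 1 in Fe deficiency and 1 in the interaction, the trend and robust prior 1, 1 and, against Fe deficiency, 4, and 1 added, median centring and the block 1 each in the combined deficiency and against Fe deficiency.

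Leaving out an array assumes that the lone array of its group varies like the others. In P deficiency it gave 5.40 to 5.58 for OsMGD2, 1.02 to 1.06 for OsMGD3, -0.033 to 0.402 for OsSFR2-a, -0.12 to 0.90 for OsSFR2-s and -1.05 to -0.87 for OsSFR2-b. In Fe deficiency it gave 0.88 to 1.09, -0.008 to 0.067, -0.47 to 0.16, -0.34 to 0.68 and -0.66 to -0.13 in the same order. In the combined deficiency it gave 4.90 to 5.12, 0.88 to 0.99, 0.54 to 1.14, -0.21 to 0.81 and -2.62 to -1.58. Against P deficiency OsSFR2-s ranged from -0.33 to 0.15, and its interaction from -0.77 to 0.26. Against Fe deficiency OsMGD2 ranged from 3.93 to 4.14, OsMGD3 from 0.85 to 0.96 and OsSFR2-s from -0.33 to 0.61. Probe sets called ranged from 3 to 2990, 0 to 10, 5 to 651, 0 to 8, 2 to 60 and 0 to 5, and lipid genes from 1 to 2 in P deficiency, 1 to 1 in the combined deficiency and 0 to 1 against Fe deficiency.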
